A study of Mus musculus with 24 samples.

Results

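Brown adipose tissue of C57BL/6 mice that received an inhibitor of the microRNA miR-452 (antimiR-452) was compared with brown adipose tissue of mice that received a scrambled control sequence (scramblemiR). The comparison covered every gene whose mean normalised read count over both groups was at least 10, whatever its direction, which gave 14672 of the 24248 genes in the table of this comparison and of the 30699 genes listed anywhere in the series. Each of the 2 groups held 4 RNA-seq libraries, out of 24 samples of white and brown fat in the series. All of these mice, controls included, received 2 subcutaneous injections of 25 mg per kg of a locked nucleic acid oligonucleotide, a chemically stabilised antisense strand. The antimiR-452 strand was directed against miR-452, and a further group of the series received an inhibitor of miR-224. Neither sex nor age is given in the sources used here. Messenger RNA was selected from total RNA of whole tissue with oligo-dT beads and sequenced after a strand-specific library preparation. The question was which transcripts of brown fat differ in level between mice given the miR-452 inhibitor and mice given the control sequence.

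MicroRNAs are short RNAs that guide Argonaute proteins to messenger RNAs, mostly through pairing of their seed with sites in the 3′ UTR, and so lower the stability or the translation of those messages. An antimiR binds the mature microRNA and blocks that pairing. Brown fat burns lipid and glucose to make heat: noradrenaline acts on adrenergic receptors of the brown adipocyte, the transcription factors PRDM16 and EBF2 and the coactivator PGC-1alpha maintain the cell's identity, and the uncoupling protein UCP1 turns the mitochondrial proton gradient into heat. Insulin acts on the same cells through its receptor and the insulin receptor substrates IRS1 and IRS2.

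The 2 mature strands of mouse miR-452, from RefSeq on GRCm38.p6, are shown because they define the sites looked for in the messages. Capitals mark the seed, bases 2 to 8 from the 5′ end.
mmu-miR-452-5p: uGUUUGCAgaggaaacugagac
mmu-miR-452-3p: uCAGUCUCaucugcaaagaggu
The 5p strand lies at chrX:72262271-72262292 and the 3p strand at chrX:72262235-72262256, both on the minus strand, in an intron of Gabre (chrX:72255999-72274803), which encodes the epsilon subunit of the GABA-A receptor. Both strands of miR-224 lie in intronic sequence of Gabre as well.

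A match to the 5p seed reads TGCAAAC in a message, and the searched site is 7 bases long. Of the 12605 members with an annotated 3′ UTR (GENCODE M21, GRCm38), 1315 held at least 1 such match, which is 10.4%. The following windows of 30 bases are shown because they are the matches in genes on which the results below turn, with the match in capitals.
Gldn: attccttttctTGCAAACaggacttcattc
Ccn1: cactctaaaacTGCAAACagaaaccaggtg
Zic1: tttgtataaagTGCAAACatttcgtcccaa
Prdm16: gtacatccctgTGCAAACccagggtgtaaa
Dio2: atttatctcaaTGCAAACtgctatgaattc
These windows lie at chr9:54341093-54341122 on the plus strand, chr3:145647132-145647161, chr9:91360844-91360873, chr4:154317654-154317683 and chr12:90727017-90727046, the last 4 on the minus strand, and all 5 are in the 3′ UTR. A match is a description of the letters and does not show that the microRNA acts there.

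The deposited table gives a mean of normalised reads per group, not values per library. The reads of each library were recovered from those means and from the deposited p-values for 14513 of the 14672 members (98.9%), and the 159 others, each with a mean of 3652 or more, were used as group means. Recovered libraries could not be tied to sample titles and are numbered within each group by falling size factor, which is the scaling for depth. The scramblemiR libraries held 1.70e+07 to 2.03e+07 reads in genes. No 2 libraries of the same group agreed within counting noise. Nothing in the labels says that each library came from a different mouse, so p-values from the recovered libraries measure the spread between these samples. The deposited p rested on a spread fitted across genes, not the gene's own, for 1936 of 2297 well-detected genes examined (84.3%).

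Libraries of both groups stood apart before any gene was tested. Skeletal muscle genes, such as myosins and troponins, had a summed level over the 14 recovered markers of 149214, 110230.0, 1104 and 1190.3 normalised reads in scramblemiR libraries 1 to 4 and of 279981, 5371, 1902 and 18231 in antimiR-452 libraries 1 to 4. Muscle signal was thus high in scramblemiR libraries 1 and 2 and in antimiR-452 library 1, intermediate in antimiR-452 libraries 2 and 4 and lowest in the other 3. The slow troponin Tnni1 was at 0 in scramblemiR library 4 and in antimiR-452 library 3. AntimiR-452 library 1 also had the lowest level of thermogenic genes and the highest of stromal and macrophage genes, and antimiR-452 library 3 the highest of globin genes. In RNA of whole tissue, fewer cells of a type and less RNA per cell cannot be told apart.

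**Figure D1:**
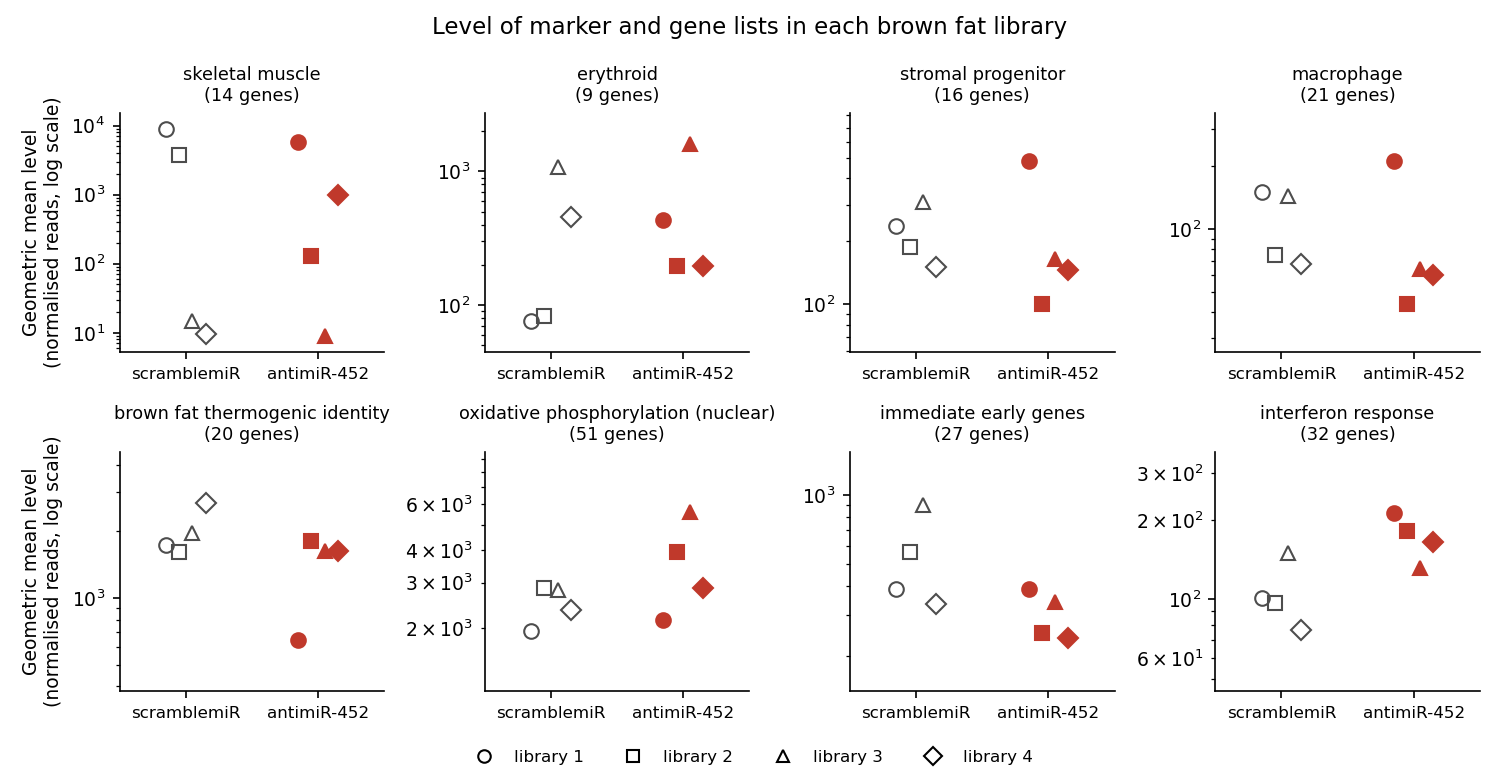
Geometric mean level in normalised reads (log axis) of 4 marker lists and 4 gene lists in each library, with open symbols for scramblemiR and filled for antimiR-452. Skeletal muscle levels run from 9.71 to 8962 among the controls alone, and interferon genes are higher in antimiR-452 libraries 1, 2 and 4 than in every control.

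No gene passed an adjusted p of 0.05. The smallest adjusted p was 1 in the authors' deposited table (DESeq) and 0.999 in a limma fit of log2(value + 1) on the recovered libraries. Before adjustment, 55 members (0.375%) had a p below 0.05 in the authors' deposited table, 15 higher (0.102%) and 40 lower (0.273%) with antimiR-452. The limma fit put 562 of 14513 members (3.87%) below an unadjusted p of 0.05, 290 higher (2%) and 272 lower (1.87%). That count was 1737 without antimiR-452 library 1, 208 without scramblemiR library 1, 364 without scramblemiR library 3 and 188 without scramblemiR library 4. With 8 libraries in 2 groups of 4, the groups did not overlap for 249 genes that were higher (1.72%) and 211 that were lower (1.45%), 460 in all (3.17%), and an exact two-sided permutation test of a single gene can give no p below 0.0286. Genes named below were picked by their p or list, so their values and single-gene p are descriptions, and none is a change called at an adjusted p of 0.05.

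The distribution as a whole lay close to 0. The mean was higher with antimiR-452 for 8228 members (56.1%) and lower for 6444 (43.9%), and the median log2 ratio of group means was 0.06. In the limma fit, where each library counts alike, the median log2 difference was -0.05 and 45.2% of genes were higher. Group means differed by more than 2-fold for 448 members (3.05%), 253 higher and 195 lower. The median standard error of a log2 difference was 0.358.

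**Figure D2:**
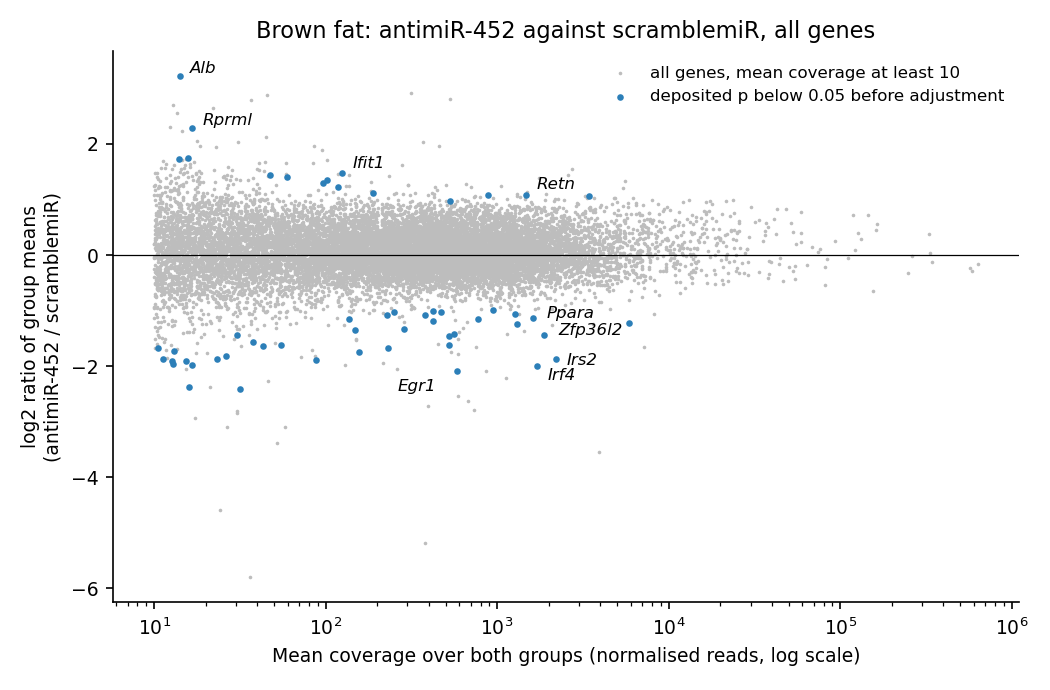
Each point is 1 of the 14672 genes, with its mean normalised read count over both groups on a log x axis and the log2 ratio of the antimiR-452 mean to the scramblemiR mean on the y axis. The 55 genes with a deposited p below 0.05 before adjustment are blue, among them Irs2 at -1.87 and Irf4 at -2.004, and the median of all genes is 0.06.

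Among the 12 genes with the smallest deposited p in the downward direction, Irs2 came first. Irs2 (ENSMUSG00000038894, chr8:10984681-11008458) encodes the insulin receptor substrate that links the insulin receptor to phosphatidylinositol 3-kinase. Its normalised read counts were 3363, 1859, 5084 and 3599 in scramblemiR libraries 1 to 4 and 1305, 819, 903 and 776 in antimiR-452 libraries 1 to 4. Every antimiR-452 library was below every scramblemiR library. The means were 3476 ± 1320.5 and 951 ± 242 (SD, n = 4 each), 3.66-fold apart. In the authors' deposited table p was 0.000599 before and 1 after adjustment. The limma log2 difference was -1.81 (SE 0.326), with an limma adjusted p = 0.999 and an exact permutation p = 0.0286, the smallest that 4 against 4 can give. Over all alternatives run, that difference lay between -2.31 and -1.60. The 3′ UTR of Irs2 held no match to either miR-452 seed.

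Irf4 encodes a transcription factor of the interferon regulatory family that works with PGC-1alpha on thermogenic genes of brown fat. It was counted at 2557, 659, 4537 and 3181 in scramblemiR libraries 1 to 4 and at 357, 933, 599.9 and 836 in antimiR-452 libraries 1 to 4. The groups overlapped through scramblemiR library 2, which lay among the antimiR-452 values. The limma log2 difference was -1.79 (SE 0.579, exact permutation p = 0.0857), and no seed match was found.

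The other protein-coding genes of this set were Gldn, Ccn1, Zfp36l2, Cdh2 and Scnn1g. Gldn, which encodes gliomedin, an adhesion protein of the node of Ranvier, had 58.6, 99.1, 111 and 64.3 in scramblemiR and 29.99, 18.5, 39.1 and 20.7 in antimiR-452 libraries, with no overlap and a limma log2 difference of -1.59 (SE 0.361). Ccn1, an immediate early gene for a secreted matricellular protein formerly called Cyr61, had 472, 1002, 1258 and 352 in scramblemiR and 288, 291, 308 and 243 in antimiR-452 libraries. All 4 antimiR-452 values of Ccn1 lay close together and below the lowest control, while the controls themselves spread widely. Gldn and Ccn1 were the 2 genes with a miR-452-5p seed match among the 7 of these 12 that had an annotated 3′ UTR.

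Zfp36l2, an RNA-binding protein that promotes decay of AU-rich messages, had 2054, 1438, 2744 and 4780.1 in scramblemiR and 633, 1064, 1466 and 916 in antimiR-452 libraries, where antimiR-452 library 3 lay just above the lowest control. Cdh2, the gene of N-cadherin, had 455, 237, 313 and 628 and 57.4, 212, 126 and 255, and Scnn1g, a subunit of the epithelial sodium channel, had 47.4, 23.3, 15.9 and 59.8 and 1.71, 25.2, 8.03 and 5.17, in the same order of groups. In both, antimiR-452 library 1 was the lowest of the 8 libraries and the groups overlapped. Cdh2 and Scnn1g differed by -1.43 (SE 0.492) and -2.06 (SE 0.736) on the log2 scale in the limma fit.

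The remaining 5 of the 12 are not known as protein-coding. Gdap10, a long noncoding RNA, was at 446, 214, 339.7 and 409 in scramblemiR and 95.1, 115, 19.1 and 213 in antimiR-452 libraries, so that the highest antimiR-452 library came just under the lowest control. Gm11295 and Gm14373 are processed pseudogenes, whose reads can be shared with parent genes, and their log2 ratios of -1.74 and -1.89 are uncertain for that reason. Gm38357 and ENSMUSG00000104475, which has no symbol in the annotation used, had means of 26.8 against 5.14 and 53.1 against 9.94.

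Among the 12 genes with the smallest deposited p in the upward direction, Alb had the largest ratio but few reads. Alb, the albumin gene, is made mainly in liver and was at 6.51, 0, 1.06 and 3.32 in scramblemiR and 51.4, 10.7, 17.1 and 22.7 in antimiR-452 libraries. The groups did not overlap, and the highest value was in antimiR-452 library 1. The limma log2 difference was 2.98 (SE 0.774, exact permutation p = 0.0286).

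C1qtnf4, which encodes a secreted protein of the C1q and TNF-related family, had 41.9, 28.2, 33.9 and 27.7 in scramblemiR and 96.8, 74.8, 101 and 73.4 in antimiR-452 libraries. The means were 32.9 ± 6.59 and 86.6 ± 14.6 (SD, n = 4 each), and every antimiR-452 library lay above every control. The limma log2 difference was 1.37 (SE 0.278) with an limma adjusted p = 0.999 and an exact permutation p = 0.0286. Rprml, a relative of the cell cycle gene reprimo, had 11.2, 5.83, 1.06 and 4.43 and 25.7, 12.6, 46.1 and 25.8 in the same order of groups, again without overlap.

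Retn encodes resistin, a hormone of adipocytes in mice. It was counted at 1761, 749, 405 and 870.0 in scramblemiR and 2588, 973, 2816 and 1661 in antimiR-452 libraries. The ranges overlapped, since antimiR-452 library 2 lay below scramblemiR library 1, and the limma log2 difference was 1.16 (SE 0.483). Isg15 and Ifit1 are interferon-induced genes and are described with their group. None of the 8 genes in this set with an annotated 3′ UTR held a miR-452-5p match.

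The other 6 upward genes are poorly characterised. 1600002K03Rik was at 75.3, 72.9, 64.5 and 69.8 in scramblemiR and 159, 119, 264 and 119 in antimiR-452 libraries, and its groups did not overlap. The log2 ratios of Gm17066, 2310033P09Rik and Gm43359 were 1.35, 1.12 and 1.75. Those of the pseudogene Gm5963 (1.07) and of Gm10138 (1.45), annotated as antisense to another gene, are uncertain, since the authors' handling of shared and opposite-strand reads is not given in the sources used here.

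**Figure D3:**
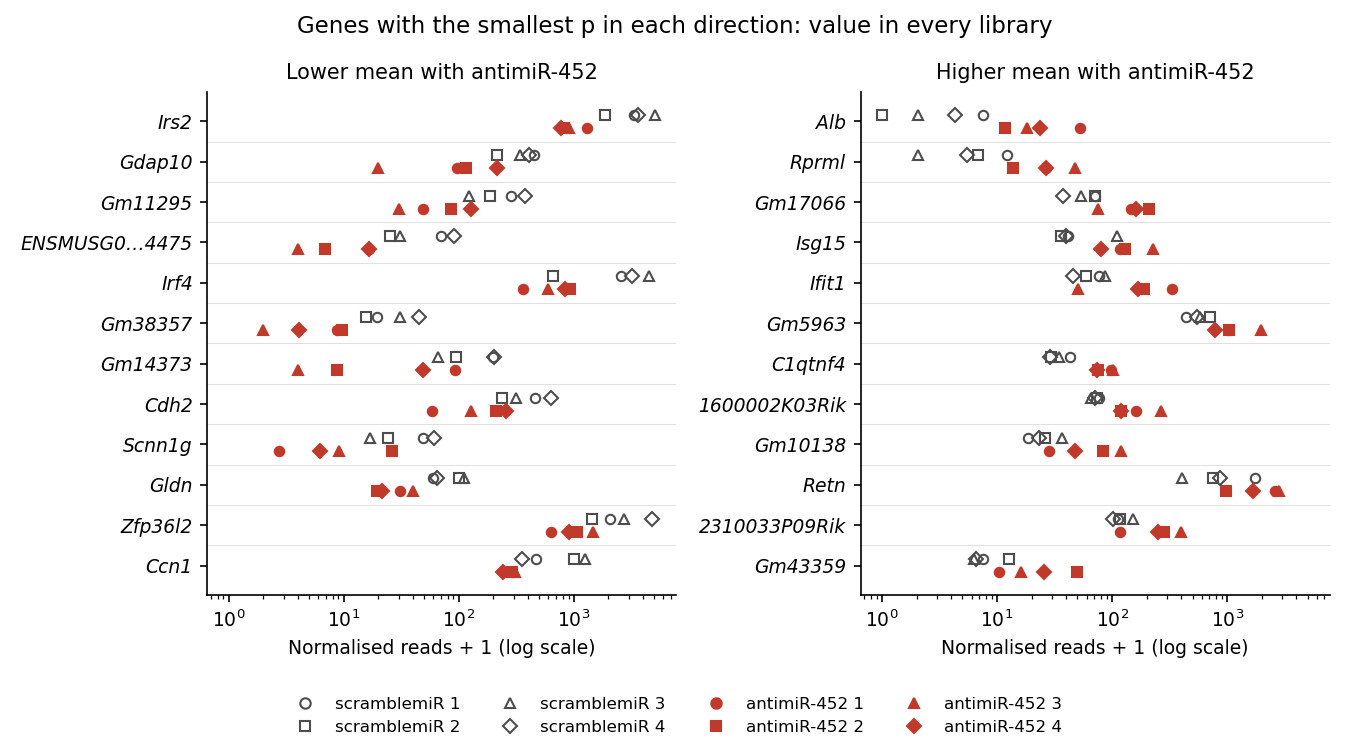
Normalised reads + 1 on a log axis of the 12 genes with the smallest deposited p in each direction, with open symbols for the 4 scramblemiR and filled symbols for the 4 antimiR-452 libraries. The 2 groups are separate for Irs2 and C1qtnf4 and overlap for Irf4 and Retn.

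Thermogenic genes were mostly lower in mean. Of the 24 members of this list (of 26), 19 were below 0 and 5 above, against 43.9% and 56.1% of all genes, with a median log2 ratio of -0.26 where all genes had 0.06. The limma median over the 20 recovered members was -0.58, and 4 of them, Ppara, Zic1, Ebf2 and Prdm16, had an unadjusted limma p below 0.05 and a lower mean, as did 1.87% of all genes. The summed level was 57936, 61442, 79719.6 and 109564 in scramblemiR libraries 1 to 4 and 20134, 76963, 86598 and 64300.3 in antimiR-452 libraries 1 to 4, lowest in antimiR-452 library 1 and within the control range in the other 3. Without antimiR-452 library 1 the limma median was -0.15, and without library 3 it was -0.74. Library 1 was also the antimiR-452 library with the most muscle signal, whose part in the result was not tested.

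Ppara, the nuclear receptor that drives fatty acid oxidation genes, was at 2298, 1402, 1596 and 3592 in scramblemiR and 691, 843, 1128 and 1381 in antimiR-452 libraries. All 4 antimiR-452 libraries lay below all 4 controls, by a narrow margin. The limma log2 difference was -1.09 (SE 0.347, exact permutation p = 0.0286), and it was between -1.30 and -0.82 over all alternatives run.

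The 3 regulators of brown fat identity overlapped between groups. Prdm16 had 767, 456, 734 and 551 in scramblemiR and 253, 454, 479 and 313 in antimiR-452 libraries, a limma log2 difference of -0.76 (SE 0.279). Ebf2 had 1085, 771, 1183 and 1605 in scramblemiR and 398, 729, 579.8 and 996 in antimiR-452 libraries (-0.81, SE 0.328), and Zic1, a marker of the brown lineage, 251, 185, 156 and 398 and 86.5, 152, 173 and 123 (-0.83, SE 0.348). In each gene 1 antimiR-452 library exceeded the lowest control, library 3 for Prdm16 and Zic1 and library 4 for Ebf2, and library 1 was the lowest of the 8. Zic1 and Prdm16 hold a miR-452-5p match each.

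The effector genes were more variable. Dio2, the deiodinase that makes active thyroid hormone in brown fat and also a gene with a match, was at 4630.4, 5166, 8329.7 and 11875 in scramblemiR and 982, 6640.3, 4373 and 5144 in antimiR-452 libraries. AntimiR-452 library 1 lay far below the controls, library 3 just below the lowest, and the other 2 among them. Ppargc1a, the gene of PGC-1alpha, was at 1121, 1740.0, 1639 and 1307 and 1358, 1239, 592 and 1699.6, where antimiR-452 library 3 was the lowest and the other 3 lay within the control range.

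Elovl3, a fatty acid elongase induced by cold, was at 1029.7, 1877, 1549 and 4399 in scramblemiR and 158, 2746, 4417 and 2335 in antimiR-452 libraries. Its antimiR-452 values spanned the whole control range and beyond it on both sides, with library 1 lowest. Ucp1 itself, whose antimiR-452 libraries were not recovered, had group means of 87305 and 74998, a log2 ratio of -0.22. The means of Cidea, a lipid droplet protein of brown fat, were 41318 and 61760.4 (log2 ratio 0.58), so that not all defining genes had a lower mean.

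Adrenergic and thyroid signalling genes leaned the same way. In the list of thyroid and catecholamine input, 18 of 24 members were below 0, with a median log2 ratio of -0.30 and a limma median of -0.39. Its smallest deposited p belonged to the adenylyl cyclase Adcy9, at 1502, 718, 393 and 1124 in scramblemiR and 765, 243, 216 and 393 in antimiR-452 libraries, with overlap. The beta-3 receptor gene Adrb3 was at 4397, 3601, 5273 and 3768 and 1467, 4853, 4245 and 4486, within the control range except for a low antimiR-452 library 1.

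Insulin signalling genes as a list lay close to all genes. Of 32 members, 14 were above and 18 below 0, with a median log2 ratio of -0.06 and a limma median of -0.18. An unadjusted limma p below 0.05 was reached by 4 of them, all with a lower mean, Irs2, Cbl and Pdpk1 among them, where 1.87% of all genes were that low. Cbl, a ubiquitin ligase that acts in insulin signalling, was at 850.2, 680.1, 910.0 and 958 in scramblemiR and 525, 572, 345 and 665 in antimiR-452 libraries, without overlap (-0.72, SE 0.244).

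The receptor and the other substrate had no unadjusted limma p below 0.05. Insr, the insulin receptor gene, was at 3729, 2438, 2280.3 and 4280.2 in scramblemiR and 2766, 2057, 835 and 2974 in antimiR-452 libraries, and Irs1 was at 1752, 1014, 1113 and 1358 and 1937, 768, 442 and 904. Their limma log2 differences were -0.66 (SE 0.425) and -0.54 (SE 0.416), the ranges of Insr overlapped, and the antimiR-452 values of Irs1 lay on both sides of the control range. Slc2a4, the insulin-responsive glucose transporter GLUT4, was at 8385, 10823, 8492 and 11276 in scramblemiR and 12211, 9509.9, 14939 and 8289 in antimiR-452 libraries, with overlapping ranges and a log2 difference of 0.18 (SE 0.271).

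Immediate early genes, which respond within minutes to neural and hormonal stimuli, were mostly lower in mean. Of 27 members, 24 were below 0, with a median log2 ratio of -0.69 and a limma median of -0.63 that lay between -0.85 and -0.36 when single libraries were left out. Ccn1 (log2 ratio -1.45) was not among the 27, because the list held its former symbol. The summed level was 20719.5, 28154, 46295 and 18869.9 in scramblemiR libraries 1 to 4 and 23235, 14335, 18276 and 11747 in antimiR-452 libraries 1 to 4. ScramblemiR library 3 was highest and the ranges overlapped. An unadjusted limma p below 0.05 was reached by 6 of the 27 (1.87% of all genes were that low), all of them in the downward direction.

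Sik1, a kinase induced by cyclic AMP, was at 1992, 1859.5, 5781 and 2102 in scramblemiR and 1123, 1025, 1812 and 947 in antimiR-452 libraries. Its groups did not overlap although scramblemiR library 3 alone held a much larger value than the rest. Egr1, a zinc finger transcription factor, was at 414, 1148, 1966 and 237 in scramblemiR and 203, 151, 307 and 220.2 in antimiR-452 libraries. The controls of Egr1 spanned a wide range and scramblemiR library 4 fell inside the antimiR-452 values, while the antimiR-452 values stayed low.

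Fosl2, an AP-1 subunit, was at 701, 564, 1788 and 1204 in scramblemiR and 642, 430.2, 455 and 383 in antimiR-452 libraries, with antimiR-452 library 1 above the lowest control. Nr4a3, an orphan nuclear receptor, was at 832, 732, 872 and 760.3 and 569.8, 656, 212 and 366, without overlap. Its relative Nr4a1 was at 4687, 4313, 9175 and 2204 in scramblemiR and 5971, 608, 1236 and 842 in antimiR-452 libraries. Here antimiR-452 library 1 had the second highest value of all 8 libraries and the other 3 lay below every control. The same pattern held for Fos, at 579, 2071, 514 and 158 and 728, 55.4, 120.4 and 89.9, where antimiR-452 library 1 was the second highest of the 8.

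Interferon-induced genes all had a higher mean with antimiR-452. Of 33 members, 33 were above 0, where 56.1% of all genes were, with a median log2 ratio of 0.68 against 0.06 for all genes. The limma median was 0.67 and stayed between 0.56 and 0.83 when single libraries were left out. Of the 32 recovered members, 10 had an unadjusted limma p below 0.05 in the upward direction (2% of all genes did) and 0 in the downward direction, and none passed adjustment. The geometric mean level over the list was 101, 97.04, 150.2 and 76.3 in scramblemiR libraries 1 to 4 and 212, 181, 131 and 165 in antimiR-452 libraries 1 to 4. ScramblemiR library 3 exceeded antimiR-452 library 3, and the other antimiR-452 libraries were above all controls.

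Isg15, a ubiquitin-like modifier, was at 39.997, 34.98, 110.0 and 38.8 in scramblemiR and 116, 129, 228 and 79.6 in antimiR-452 libraries. ScramblemiR library 3 stood above the other controls and inside the antimiR-452 range. Ifit3, which binds foreign RNA with its family members, was at 101, 63.1, 96.3 and 70.9 in scramblemiR and 243, 165, 162 and 139.6 in antimiR-452 libraries, with no overlap and a limma log2 difference of 1.08 (SE 0.274, exact permutation p = 0.0286). Ifit1 was at 75.3, 58.3, 85.7 and 44.3 and 327, 187, 49.2 and 167, where antimiR-452 library 3 fell inside the control range and library 1 was the highest.

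Bst2, the membrane protein tetherin, was at 259.5, 387, 742 and 181 in scramblemiR and 544, 689, 1133 and 609 in antimiR-452 libraries. Irf7, the transcription factor that amplifies the interferon response, was at 181, 188, 438 and 136 and 612, 389, 427 and 297. In both genes scramblemiR library 3 overlapped the antimiR-452 range while the other 3 controls lay below it. Rtp4 was at 64.2, 98.1, 132 and 76.5 in scramblemiR and 225, 152, 147 and 139.6 in antimiR-452 libraries, without overlap. Rtp4, Irf7, Nr4a3, Pdpk1 and Ndufa5 were singled out from their lists after their values were seen. Macrophage markers, given beside these genes because macrophages respond to interferon, had a median limma log2 difference of -0.43 with 10 of 21 above 0 in mean, and their part in the result was not tested.

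**Figure D4:**
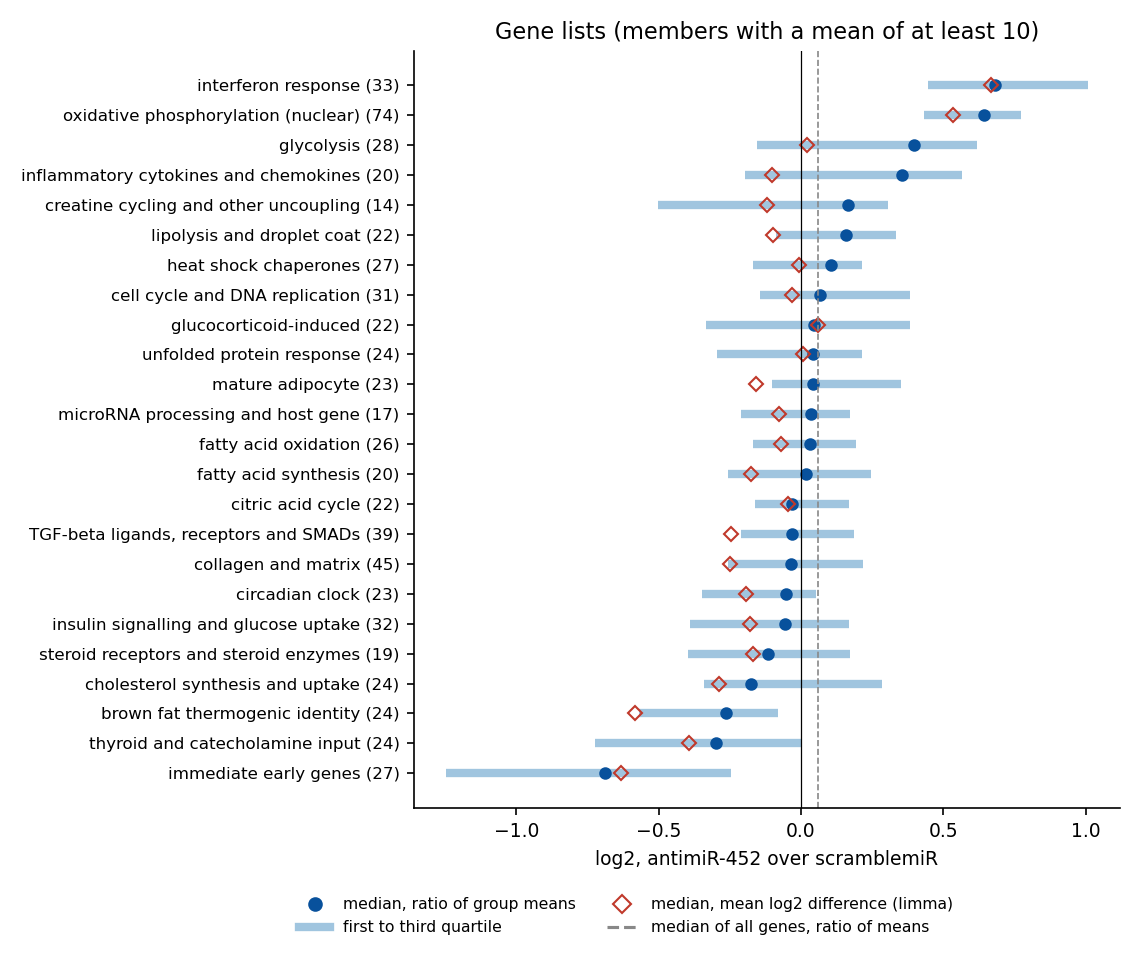
Each row is 1 of the 24 gene lists with its number of members, and the dot is the median log2 ratio of group means. The bar spans the middle quartiles of the list's members, and the open diamond is the median limma log2 difference over recovered members. Interferon and oxidative phosphorylation genes lie highest at 0.68 and 0.64, and immediate early genes lowest at -0.69.

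Subunits of the respiratory chain and ATP synthase had higher means as a group. Of 74 members, 71 were above 0, with a median log2 ratio of 0.64. The limma median over the 51 recovered members was 0.54, but 0.27 without antimiR-452 library 3 and 0.80 without library 1. The geometric mean level was 1945, 2852, 2820.1 and 2357 in scramblemiR libraries 1 to 4 and 2157, 3944, 5624 and 2847 in antimiR-452 libraries 1 to 4. AntimiR-452 libraries 2 and 3 were above every control, and libraries 1 and 4 lay within the control range. An unadjusted limma p below 0.05 was reached by 2 of the 51, Ndufa13 and Ndufa5, a share near the 2% of all genes that were that high, so the count is no result about the list.

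Ndufa13, a subunit of complex I, was at 3039, 4652, 4736 and 3762 in scramblemiR and 4369, 8260.1, 14663 and 5821 in antimiR-452 libraries, with library 1 inside the control range. Ndufa5, another complex I subunit, was at 1656, 2438, 2144 and 1829 and 2492, 4069, 3907 and 2524, and its groups did not overlap. Its limma log2 difference was 0.66 (SE 0.254, exact permutation p = 0.0286).

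Transcript length moved with this result, and its part in this and the other lists was not tested. The respiratory chain genes are short, with a median longest transcript of 1003 nt, where all genes had 3158 nt. Some lists were longer, with 5790 nt for insulin signalling, 4110.5 nt for thyroid and catecholamine input and 5348 nt for collagen and matrix. TGF-beta genes had 4255 nt and microRNA pathway genes 5081 nt. Thermogenic genes had 3282 nt and immediate early genes 2790 nt. Over all members, the median log2 ratio was 0.41 for genes whose longest transcript was under 1000 nt, 0.32 from 1000 to 2000 nt, 0.08 from 2000 to 4000 nt, -0.11 from 4000 to 8000 nt and -0.23 above 8000 nt. The median was above 0 in the 3 shorter classes and below 0 in the 2 longer. Genes without overlap between groups were 76 higher and 18 lower under 1000 nt, and 15 higher and 101 lower from 4000 to 8000 nt. Above 8000 nt they were 1 higher and 35 lower, and over all genes 249 (1.72%) and 211 (1.45%). AntimiR-452 library 3 had the steepest slope of the 8, with a median deviation from the mean of all libraries of 0.67 log2 units for the shortest class and -0.85 for the longest. Without that library the limma medians ran from 0.14 for the shortest class to -0.11 for the longest, compared with 0.29 and -0.36 over all libraries.

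**Figure D5:**
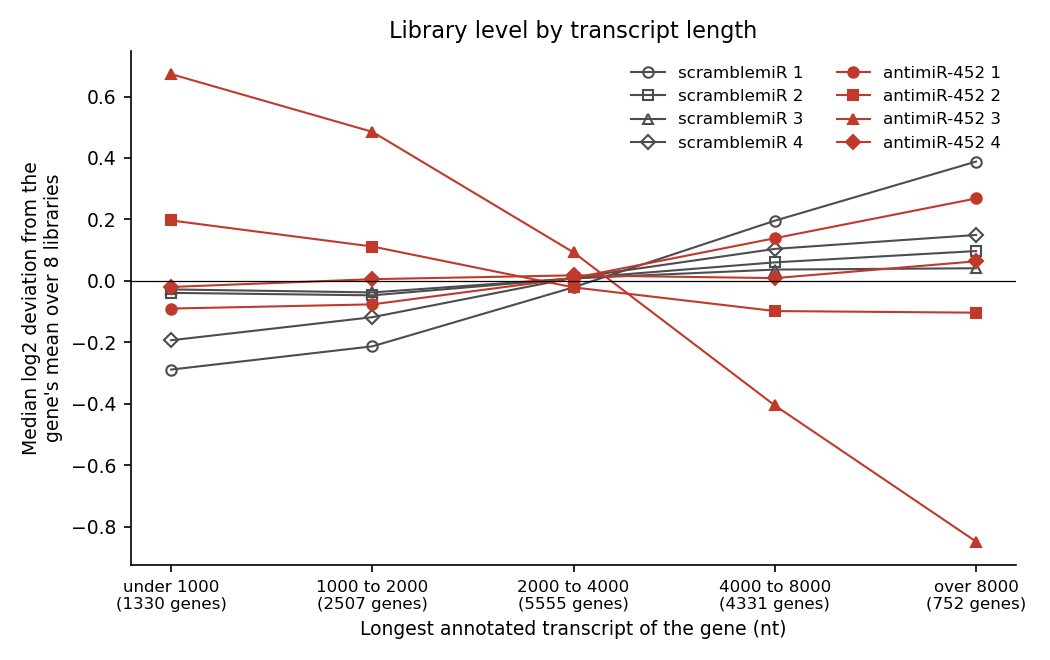
Median log2 deviation of each of the 8 libraries from the mean of all libraries, by class of longest transcript in nt on the x axis. AntimiR-452 library 3 runs from 0.67 in the shortest class to -0.85 in the longest, and no other library spans as much.

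Other energy and lipid lists had medians near 0. The medians of log2 ratio were 0.04 for mature adipocyte genes (13 of 23 above 0), 0.02 for fatty acid synthesis (10 of 20), 0.03 for fatty acid oxidation (13 of 26) and -0.03 for the citric acid cycle (11 of 22). Lipolysis and droplet coat genes had 0.16 (15 of 22). The limma medians of these 5 lists cover recovered members only, 10 of 23, 12 of 20, 16 of 26, 8 of 22 and 16 of 22 in this order. On these fewer genes all 5 limma medians were below 0 over all libraries. Without antimiR-452 library 1 all 5 limma medians were above 0, from 0.10 for the citric acid cycle to 0.36 for lipolysis. Pparg, the master regulator of adipocytes, was at 3714, 3984, 4861 and 5697 in scramblemiR and 1051, 3955, 4742 and 4525 in antimiR-452 libraries, low in antimiR-452 library 1 alone.

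Glycolysis had a median of 0.40 (18 of 28 above 0) but a limma median of 0.02 over its 23 recovered members. Cholesterol synthesis and uptake had -0.17, with 16 of 24 below 0, and a limma median of -0.29 that was 0.06 without antimiR-452 library 1. In that list the smallest deposited p belonged to the sterol reductase Tm7sf2, which was higher in mean (log2 ratio 0.65). Creatine cycling and other uncoupling genes had 0.17 (9 of 14 above 0) but a limma median of -0.12. Within that list Ryr2, a calcium release channel, was at 15.8, 16.5, 28.6 and 18.8 in scramblemiR and 3.43, 8.74, 3.01 and 6.203 in antimiR-452 libraries. Its groups did not overlap, at low counts (-1.78, SE 0.485).

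Stress, clock and hormone lists had medians of either sign. The median log2 ratio was 0.11 for heat shock chaperones (17 of 27 above 0), 0.04 for the unfolded protein response (13 of 24), 0.05 for glucocorticoid-induced genes (13 of 22) and -0.05 for clock genes (8 of 23). Their limma medians, in the same order, were -0.01, 0.01, 0.06 and -0.19. Without antimiR-452 library 1, which held the largest summed level of heat shock chaperones, they were -0.41, -0.02, -0.16 and -0.27. Wee1, a clock-controlled kinase of the cell cycle, was at 72.6, 58.3, 78.3 and 79.8 in scramblemiR and 51.4, 10.7, 26.1 and 35.1 in antimiR-452 libraries, with all antimiR-452 values below the controls. Cell cycle genes had a median of 0.07 (19 of 31 above 0) and a limma median of -0.03.

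In matrix and growth factor lists the ratio of means and the limma median differed. Collagen and matrix genes had a median of -0.03 (20 of 45 above 0) and TGF-beta ligands, receptors and SMADs -0.03 (18 of 39). Their limma medians were -0.25 and -0.25 over all libraries, and -0.54 and -0.56 without antimiR-452 library 1. Inflammatory cytokines and chemokines had 0.35 (13 of 20) but a limma median of -0.10. Its members Nfkbia, an inhibitor of NF-kappa-B, and Ccl11, the chemokine eotaxin, had an unadjusted limma p below 0.05 with a higher mean (2% of all genes did), and log2 differences of 0.59 (SE 0.235) and 0.52 (SE 0.195).

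Steroid receptors and steroid enzymes, listed because the series concerns estrogen, had a median of -0.11, with 8 of 19 above 0. Their limma median was -0.17 and was 0.01 without antimiR-452 library 1. Esr1, which encodes estrogen receptor alpha, was at 1304, 810.3, 519.5 and 1247 in scramblemiR and 755, 424, 360.1 and 1046 in antimiR-452 libraries, with overlap (-0.62, SE 0.416). Its coactivator gene Ncoa1 was at 1122, 931, 909 and 1318 and 816, 759, 739 and 739, and all 4 antimiR-452 libraries lay below the controls (-0.47, SE 0.189, exact permutation p = 0.0286).

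In the microRNA pathway no gene had an unadjusted limma p below 0.05. Its 17 genes had a median of 0.03, with 10 above 0, and a limma median of -0.08 that was -0.32 without antimiR-452 library 1. Gabre, the host gene, was weakly detected at 26.04, 19.4, 17.99 and 5.54 in scramblemiR and 54.8, 19.4, 1.003 and 17.6 in antimiR-452 libraries. The antimiR-452 values of Gabre spanned the whole control range. Ago2, the Argonaute that cleaves targets, was at 1926, 1492, 1232 and 1654 in scramblemiR and 1767, 762, 961 and 1112 in antimiR-452 libraries, with antimiR-452 library 1 among the controls. Mature miR-452 is not measured by this assay, so its level in these libraries is unknown.

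Genes with a match to the miR-452-5p seed had a lower median than genes without one. The 1315 genes with a match had a median log2 ratio of -0.06, with 41.3% above 0, and the 11290 without had 0.06, with 56.8% above 0. Genes with a match also had longer 3′ UTRs, with a median of 2670 nt against 1072 nt. Within tertiles of 3′ UTR length, the medians with and without a match were 0.16 and 0.24 for short, -0.02 and 0.03 for middle and -0.12 and -0.09 for long 3′ UTRs. The gap between genes with and without a match was thus smaller within each tertile than over all lengths. For the 144 genes with 2 or more matches the median was -0.15, at a median 3′ UTR of 3879.5 nt.

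Matches to other seeds gave like values. The medians with and without a match were -0.04 and 0.06 for miR-452-3p. They were -0.06 and 0.07 for miR-224-5p and -0.05 and 0.06 for miR-224-3p, and the inhibitor was directed against miR-452. The cause of these differences, and the part of 3′ UTR length in them, was not tested. Of the 24 thermogenic genes, 5 held a miR-452-5p match (20.8%), where 10.4% of all genes with a 3′ UTR did. The 5 were Dio2, Prdm16, Esrrg, Zic1 and Slc27a2, with 3′ UTRs of 4860, 4785, 3746, 3511 and 307 nt. In the tertile of long 3′ UTRs, 907 genes held a match and 3295 did not. Of the 40 genes lower at a deposited p below 0.05, 26 had a 3′ UTR and 2 a match (7.69%).

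Globin reads varied widely between libraries of the same group. The summed level of the erythroid list was 4162, 4105, 20456 and 10582 in scramblemiR and 11919, 4888, 56194 and 4745 in antimiR-452 libraries, with a median log2 ratio of 0.51. Hba-a1, an alpha globin gene whose reads can be shared with its near copy Hba-a2, was at 105, 122, 3648 and 1685 and 1428, 539, 12659.5 and 453. Both groups held libraries with many and libraries with few globin reads, and antimiR-452 library 3 held the most.

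Stromal progenitor markers summed to 7629, 6354, 10481 and 6274 in scramblemiR and 20216, 5459, 8249 and 5580.5 in antimiR-452 libraries, and macrophage markers to 5399, 2993, 6239 and 2945 and 7876, 1689, 2789.7 and 2702. AntimiR-452 library 1 was the highest of all 8 in both lists, and the other 3 antimiR-452 libraries were within or below the control range. Csf1r, the receptor that defines macrophages, was at 513, 254, 648 and 316 in scramblemiR and 354, 111, 203 and 224.3 in antimiR-452 libraries, with overlap. The median log2 ratio of means was 0.32 for stromal (11 of 16 above 0) and -0.02 for macrophage markers (10 of 21). Limma medians without library 1 were -0.58 for stromal and -1.03 for macrophage markers, compared with -0.27 and -0.43 over all libraries. For stromal markers the ratio of means and limma thus differed in sign.

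The remaining marker lists are given by their counts and medians. Skeletal muscle had 24 of 30 markers above 0 and a median of 0.45. Over its 14 recovered markers the limma median was -1.15 without antimiR-452 library 1 and 1.52 without library 3. Endothelial markers had 0.13 (14 of 18 above 0), pericyte and smooth muscle markers 0.04 (8 of 13) and Schwann cell and nerve markers -0.24 (4 of 13). The limma medians of these 3 lists were 0.02, -0.18 and -0.33 over all libraries, and 0.41, -0.05 and -0.32 without antimiR-452 library 1. White fat depot markers had 0.54 (6 of 8), with Lep, the leptin gene, at 82.8, 77.7, 40.2 and 50.98 in scramblemiR and 512, 40.8, 113 and 29.98 in antimiR-452 libraries, highest in library 1. The limma median of that list was 0.52 over all libraries and -0.14 without antimiR-452 library 1.

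Lists with under 10 detected members were mast cell (7 of 10, median 0.39), lymphocyte (6 of 21, -0.29), neutrophil (4 of 13, -0.15), cartilage, tendon and bone (7 of 20, -0.43), epithelium and skin (4 of 18, 0.50) and thymus and lymph node (2 of 12, 0.51). The mast cell median also had the opposite sign in limma, -0.92 over all libraries and -2.17 without antimiR-452 library 1, in which the summed mast cell level was highest (912, 185, 351 and 219 in antimiR-452 and 493, 330.3, 331 and 379 in scramblemiR libraries). The limma medians of the next 4 lists were -0.25, -0.36, -0.22 and 0.47, and without antimiR-452 library 1 -0.39, 0.02, -0.89 and 0.38. Thymus and lymph node had a limma median of -0.09 over all libraries. None of the 13 markers of male germ cells and epididymis reached a mean of 10.

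The antimiR-224 group of brown fat was set against the same 4 control libraries, so its values are given side by side and not as independent evidence. In that group the log2 ratio was -1.34 for Irs2, -1.23 for Irf4, 0.71 for C1qtnf4, -0.44 for Gldn and -0.63 for Ppara, against -1.87, -2.004, 1.40, -1.62 and -1.14 with antimiR-452. The list medians with antimiR-224 were 0.62 for oxidative phosphorylation, -0.58 for immediate early, 0.19 for interferon and 0.02 for thermogenic genes. With antimiR-452 they were 0.64, -0.69, 0.68 and -0.26.

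White fat of mice with the same treatments has control libraries of its own. Some library numbers recur in both tissues, so white and brown fat may come in part from the same mice, which the labels do not state. The interaction test treated all libraries as independent. No gene of 16478 differed in its antimiR-452 effect between brown and white fat at an adjusted p of 0.05 in a limma interaction test, and 900 (5.46%) had an unadjusted p below 0.05. The effect on Irs2 was -1.81 in brown fat and the brown fat effect minus the white fat effect was -1.79 (limma adjusted p = 0.857), with a white fat log2 ratio of -0.05. Esr1 had a log2 ratio of 0.89 in white fat against -0.59 in brown fat, with a difference of -1.45 between the limma effects (limma adjusted p = 0.857).

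In white fat, 12 of 33 interferon genes were above 0 with a median of -0.10. So were 2 of 74 oxidative phosphorylation genes, with a median of -0.26, and 11 of 27 immediate early genes, with a median of -0.05. Of the 14606 members of the brown fat comparison with a white fat ratio, 6280 were above 0, with a median of -0.04. The white fat table was normalised apart from the brown fat table, so only ratios within each are set side by side. Ifit3 gave a brown minus white difference of 1.46 (limma adjusted p = 0.857) and Ndufa5 of 0.96 (limma adjusted p = 0.857), and neither passed adjustment.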

How the data were processed

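Brown fat RNA-seq of 4 scramblemiR and 4 antimiR-452 libraries was analysed. The authors deposited normalised counts as group means (coverage signal per gene), with their ratio, log2 ratio and p-value from DESeq 1.10.1 (R 2.15.3) on GRCm38.p4, per the submitters' processing notes. Which aligner and counter were used, and with which strand setting, is not given in the sources used here.

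Reads per library were recovered as the whole reads that give each deposited mean and, for 1494 genes, also the deposited p-value, recomputed with the authors' exact test. Of 233 genes already fixed by their means, 233 were found again through their p-values. Recovered values were compared with limma 3.58.1 on log2(value + 1) with trend and robust spread, Benjamini-Hochberg adjustment and a minimum mean of 10, and single genes with exact permutation tests. The interaction with white fat used both tissues in 1 limma fit. Scripts were tested on simulated data. Alternatives changed the pseudocount (0.5, 5) and the minimum mean (0, 50), used other normalizations and tools, and left out each library in turn.

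Seed matches were searched in GENCODE M21 3′ UTRs. Identifiers matched symbols for 99.5%. Named genes were the 12 with the smallest deposited p in each direction, up to 4 per list, and list-defining genes. Members and lists were chosen with earlier results of these data known. One gene is not reported here.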

Additional observations from a re-analysis of the deposited data

Results flagged for a closer look

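In 13 of 120 groups of 4 libraries, from 60 genes and lists, 1 library stood apart from the other 3 (the gap took up most of the group's range). The rule flags about 1 in 20 by chance only where values are independent and normally spread. These groups share libraries and genes, so the count cannot be set against that rate. Among the gene values, 1 scramblemiR library was high for Isg15 (110.0 against 34.98 to 39.997 normalised reads), Sik1 (5781 against 1859.5 to 2102) and Myh7, a slow muscle myosin (26072 against 1.11 to 2744). One antimiR-452 library was high for Rtp4 (225 against 140 to 152), Nr4a1 (5971 against 608 to 1236), Fos (728 against 55.4 to 120.4), Mylk2, a muscle kinase (25012.5 against 2.01 to 976), and Hba-a1 (12659.5 against 453 to 1428).

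Among the lists, 1 antimiR-452 library had the highest geometric mean level of skeletal muscle (5801 against 8.90 to 986), erythroid (1611 against 195 to 431), stromal progenitor (484 against 101 to 164) and macrophage genes (211 against 43.8 to 64.6). One antimiR-452 library had the lowest level of thermogenic genes (647 against 1633 to 1812). These were antimiR-452 library 1 except for the erythroid list and Hba-a1, where it was library 3.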

How the results depend on the processing

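The count of genes past an adjusted p of 0.05 was 0 in the deposited test and in the limma fit under every alternative run, as was the count for the interaction with white fat. The limma count at an unadjusted p below 0.05, 562 as reported, was 862 with no minimum mean. It ran from 188 to 490 when single scramblemiR libraries were left out and from 390 to 1737 when single antimiR-452 libraries were. With only the 2 libraries of each group lowest in muscle genes, an alternative chosen after seeing the data, it was 1014, and the cause was not tested. Higher genes made up 51.6% of that count as reported and 59.6% after quantile normalization. The 24 genes with the smallest deposited p kept their direction in all 401 values from alternatives. They were picked by p from these same libraries, so a kept direction was largely set by that choice and is no support for them. Of all 161 named genes, 29 changed sign, in 71 of 2703 values. Of 38 medians (37 lists and all genes), 14 differed in sign between the ratio of means and limma. Thymus and lymph node, with 2 recovered members, was not in that count, and its medians of 0.51 and -0.09 also differed in sign. The limma medians cover recovered members only, so both medians of a list need not rest on the same genes. No paired analysis was possible because the recovered libraries carry no replicate numbers. No neutrophil marker could be tested at a minimum mean of 50. Depth limits genes such as Alb and Ryr2, with few reads per library.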

Other observations

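Skeletal muscle genes differed widely between libraries of the same group. Myh7, the slow myosin gene, was at 26072, 2744, 11.6 and 1.11 in scramblemiR and 914, 53.4, 1.003 and 1512 in antimiR-452 libraries, so that scramblemiR library 1 held most of its control reads. Its log2 ratio of means was -3.54, and its limma difference ran from -3.13 to 1.41 over the alternatives, changing sign. Mylk2 was at 6573, 6272, 4.23 and 9.97 in scramblemiR and 25012, 304, 2.01 and 976 in antimiR-452 libraries, highest in antimiR-452 library 1. Mylk2 was singled out after its values were seen.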
